A study of Mus musculus with 25 samples.

Results

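Double-negative (DN) conventional dendritic cells (cDC) were set against CD8α+ cDC, both sorted from the Peyer's patches of untreated mice, with 3 arrays per group. These 6 arrays were taken by the sample titles, out of 25 arrays in the series, and all 6 entered the comparison. The mice were wild-type C57BL/6 females aged 6 to 8 weeks, and neither group was treated. Tissue from 42 mice went into each replicate, was taken apart with collagenase and DNase and enriched on CD11c beads ahead of the sort. Amplification began from 2 to 20 ng of RNA. The gate of DN cDC was CD11c-high, MHC class II+, SIRPα+, BST2-, CD11b-, CD8α- and CD4-, and the labels place most of them in the subepithelial dome, the interfollicular region or both. CD8α+ cDC were CD11c-high, MHC class II+, CD8α+ and negative for SIRPα, BST2, CD11b and CD4, and the labels place them in the T cell zone of the interfollicular region. For context, values of untreated CD11b+ cDC (5 arrays, sorted as CD11b-intermediate) are given, and of CD11b+ cDC (3 arrays) and CD8α+ cDC (5 arrays) taken 9 h after oral R848, a ligand of the endosomal receptor TLR7. Replicates are called independent in the series design, and each is a pool of mice. The SE and p-values rest on a gene's variance within groups, taken over all 25 arrays in 7 groups. These include the R848-treated arrays and macrophages labelled LysoMac, which are not compared here. An SE can thus be smaller or larger than the spread of the DN and CD8α+ arrays alone would give.

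Conventional dendritic cells pick up antigen, carry it to T cells and present it. One branch, cDC1, carries CD8α or CD103, depends on the transcription factors Irf8 and Batf3, takes up dying cells and cross-presents their antigen to CD8 T cells. The other branch, cDC2, carries SIRPα, depends in large part on Irf4, and primes CD4 T cells. Peyer's patches are lymphoid organs in the wall of the small intestine, where antigen enters from the gut lumen through the overlying epithelium and where B cells switch to IgA.

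The arrays of both groups did not share a row order, so a gene's values were found by matching rows. The deposited names fitted the R848 arrays, and the DN set and the CD8α+ set were each matched to them by a search that keeps the order of rows. No R848-treated DN cDC were measured, so the DN set was matched through its untreated CD11b+ cDC to R848-treated CD11b+ cDC. The sides of the match are thus untreated CD11b+ cDC and untreated CD8α+ cDC. For 16264 of 19938 genes a value was accepted in all sets. Of 740 genes with more than 1 transcript cluster, the difference between DN and CD8α+ cDC correlated at 0.616 between clusters, a description over genes that share arrays. Arrays correlated at 0.9898 or more within each group and at 0.9478 or less across the groups. Of 114 called genes that the naming rule selected, 43 had a side (untreated CD11b+ or CD8α+ cDC) 2 or more log2 units from its R848-treated counterpart. In 8 genes a side lay 4 or more away (App, Cd200, Cxcr3, Itgae, Lgmn, Olig1, Socs2 and Spib). A gap of this size can be a response to R848 or a wrong row. Because DN and CD8α+ cDC lie in different array sets, array set and cell type cannot be told apart. The offset between sets, a median of 0.16 log2 units as deposited, was removed with cyclic loess. Levels below are log2 signals after that step, differences are DN minus CD8α+ cDC in log2 units with their SE, and adjusted p-values are limma's.

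DN cDC differed from CD8α+ cDC by 2-fold or more, at an adjusted p under 0.05, in 1125 genes, or 6.92% of those tested. Of these, 658 genes were higher in DN cDC (4.05%) and 467 were lower (2.87%), and genes that met both conditions are called below. Counts of list members below are to be read against these shares. The lists were chosen with earlier results of these data known, so their counts and medians are descriptions. Differences of 3 log2 units or more were found for 58 genes higher in DN cDC and 33 lower. The median over all genes tested was 0.01. The split depended on the offset: with none removed, 1069 genes were higher and 318 lower (median 0.16), with offsets set on genes not used by these cells 945 were higher and 342 lower, and with all array medians set equal 536 were higher and 639 lower (median -0.17). In 8826 genes (54.3%) the arrays of both groups did not overlap, and 1120 of these (6.89% of all genes) were called. With no condition on the size, 36.3% of genes passed the adjusted p. Among the genes higher in DN cDC, 224 of 658 (34.0%) averaged at or below 4.65 in CD8α+ cDC, the 95th percentile there of 982 genes of smell, taste, hair and lens that these cells should not use. Among the genes lower in DN cDC, 87 of 467 (18.6%) averaged at or below that percentile in DN cDC, which was 4.46. In bulk RNA, fewer cells that express a gene and less RNA per cell cannot be told apart.

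**Figure D1:**
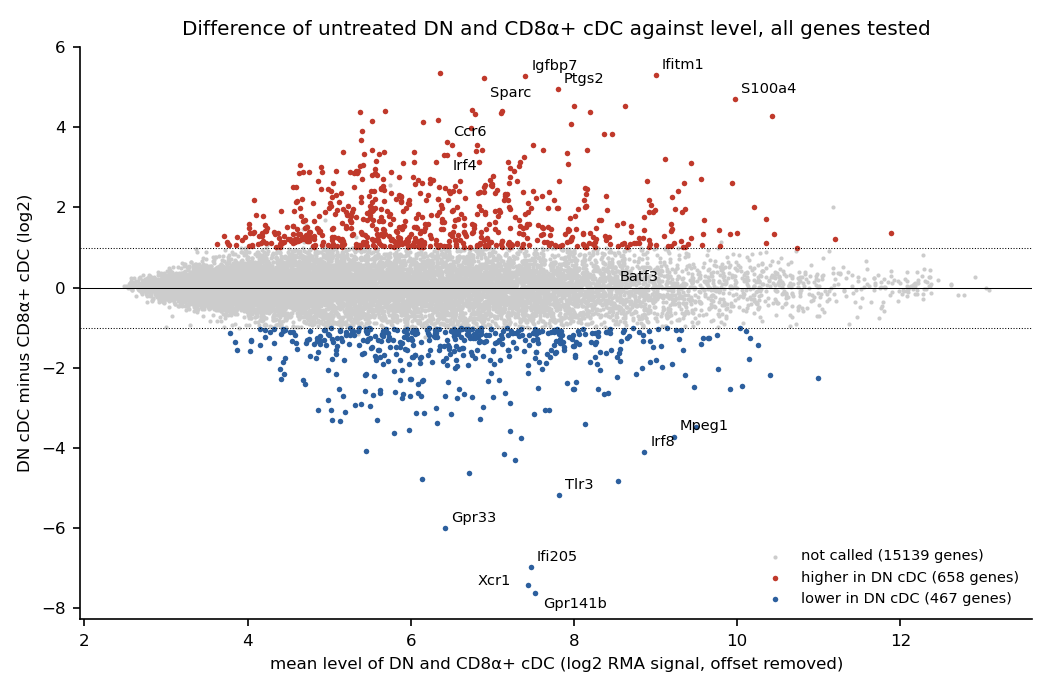
Each point is 1 of 16264 genes, with the mean level of both groups on the x axis (log2 signal) and the difference DN minus CD8α+ cDC on the y axis (log2). The 658 genes called higher in DN cDC are red, the 467 called lower are blue, the dotted lines mark 2-fold, and Batf3 lies at 0.01.

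Genes of the sort panel were looked at first. Itgax, the CD11c chain used for enrichment, differed by -0.21 ± 0.15 (adjusted p = 0.2832), and H2-Ab1, an MHC class II chain, by -0.16 ± 0.18 (adjusted p = 0.536). Flt3, the receptor of the growth factor on which cDC depend, averaged 10.34 ± 0.09 in DN cDC and 10.20 ± 0.04 in CD8α+ cDC (SD, n = 3 each), a difference of 0.14 ± 0.16. None of Itgax, H2-Ab1 and Flt3 was called. On the list of genes shared by cDC, 3 of 13 measured were higher, 1 was lower and 9 were not called. That is 30.8% called, against 6.92% over all genes. With all array medians set equal, 1 was higher and 1 lower. Rows of Sirpa, Bst2 and Cd8a were not accepted in the matching, so the genes that separate the gates could not be read in the untreated groups. Itgam, the CD11b chain, measured 4.89, 5.45 and 6.05 in DN cDC, against 3.94, 4.23 and 4.06 in CD8α+ cDC, and was called higher (1.39 ± 0.22, adjusted p = 3.52e-05). All 3 DN arrays lay above the CD8α+ arrays, while DN cDC were lower than CD11b+ cDC by 1.57 (-1.57 ± 0.19). The Itgam level of untreated CD11b+ cDC lay 2.88 above that of R848-treated CD11b+ cDC. Timd4, a receptor for phosphatidylserine on dying cells, measured 6.11, 6.15 and 6.67 in DN cDC, against 4.61, 4.57 and 4.67 in CD8α+ cDC (1.70 ± 0.33, adjusted p = 0.000406). Cd4 (0.96 ± 0.18, adjusted p = 0.000234) and Cd8b1, the β chain of CD8 (0.72 ± 0.28, adjusted p = 0.046), were not called. Both passed the adjusted p but not the 2-fold condition, and their arrays did not overlap. With no correction of the offset both were called, and Cd4 also without CD8α+ replicate 2 or DN replicate 1. The Cd8b1 level of untreated CD8α+ cDC lay 3.17 below that after R848.

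Genes known from cDC1 were mostly lower in DN cDC. Of 17 measured cDC1 genes, 13 were lower, 1 was higher and 3 were not called, with a median of -3.16 against 0.01 over all genes. Xcr1, the chemokine receptor that marks cDC1, measured 3.70, 3.60 and 3.86 in DN cDC, against 11.18, 11.20 and 11.05 in CD8α+ cDC. Gpr141b, an orphan G protein-coupled receptor, measured 3.75, 3.57 and 3.81 in DN cDC, against 11.59, 11.44 and 10.97 in CD8α+ cDC. The DN values of both genes lay near the floor of the arrays and far below every CD8α+ array. Xcr1 differed by -7.42 ± 0.14 (adjusted p = 4.85e-20) and Gpr141b by -7.62 ± 0.19 (adjusted p = 1.01e-17).

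Gpr33, another orphan receptor of this kind, measured 3.55, 3.25 and 3.48 in DN cDC, against 9.74, 9.40 and 9.11 in CD8α+ cDC (-5.99 ± 0.19, adjusted p = 7.91e-16). P2ry14, the receptor for UDP-glucose, measured 4.58, 3.84 and 4.76 in DN cDC, against 8.99, 9.25 and 8.84 in CD8α+ cDC (-4.63 ± 0.32, adjusted p = 2.06e-10). For both receptors, every DN array lay more than 4 log2 units below the lowest CD8α+ array. Lower members also included Plpp1, a lipid phosphatase (-3.16 ± 0.14), the adhesion molecule Cadm1 (-3.06 ± 0.20), Ly75, the uptake receptor DEC-205 (-2.89 ± 0.17), and Snx22 (-1.90 ± 0.29). Itgae, the CD103 chain, was lower by a smaller amount (-1.43 ± 0.28). Its untreated CD8α+ level lay 4.10 above that of R848-treated CD8α+ cDC, so its row match rests on its neighbours.

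Batf3, which cDC1 need in order to develop, was not called. It averaged 8.48 ± 0.06 in DN cDC and 8.48 ± 0.13 in CD8α+ cDC (SD, n = 3 each), a difference of 0.01 ± 0.14, and the arrays overlapped. The member that went the other way was Xcl1, the ligand of Xcr1 that NK and T cells are known to make. It measured 6.96, 7.60 and 7.26 in DN cDC, against 5.82, 4.90 and 4.56 in CD8α+ cDC (2.18 ± 0.54, adjusted p = 0.003).

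Several of the largest lower values belonged to genes outside the cDC1 list. Ifi205, an interferon-inducible gene of the HIN-200 family, measured 4.19, 3.37 and 4.39 in DN cDC, against 11.07, 11.07 and 10.73 in CD8α+ cDC (-6.97 ± 0.30, adjusted p = 1.25e-13). Mpeg1, the pore-forming protein perforin-2, measured 7.46, 6.93 and 7.69 in DN cDC, against 11.14, 11.22 and 10.87 in CD8α+ cDC (-3.72 ± 0.13, adjusted p = 5.81e-15). The DN and CD8α+ arrays were far apart for both genes. Apol7c, of the apolipoprotein L family, varied within DN cDC, at 6.49, 5.00 and 6.86, against 10.93, 10.84 and 11.09 in CD8α+ cDC (-4.83 ± 0.64, adjusted p = 4.15e-06). Untreated CD11b+ cDC, through which DN rows were matched, lay below R848-treated CD11b+ cDC by 3.65 for Apol7c and 2.60 for Ifi205. P3h2, a collagen-modifying hydroxylase, was lower by 4.78 (-4.78 ± 0.17), and Met, the receptor for hepatocyte growth factor, by 4.08 (-4.08 ± 0.19). The lipid enzymes Sgms1, a sphingomyelin synthase (-3.63 ± 0.23), and Agpat3, an acyltransferase (-3.58 ± 0.25), completed the 15 genes with the largest lower values, beside Cxcr3, Irf8, Tlr3 and Tlr12 described with their families below. In 8 of these 15 genes the DN mean lay at or below 4.46, and in 6 of the 15 genes with the largest higher values the CD8α+ mean lay at or below 4.65. The floor limits the size of such differences, so their order is not read.

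**Figure D2:**
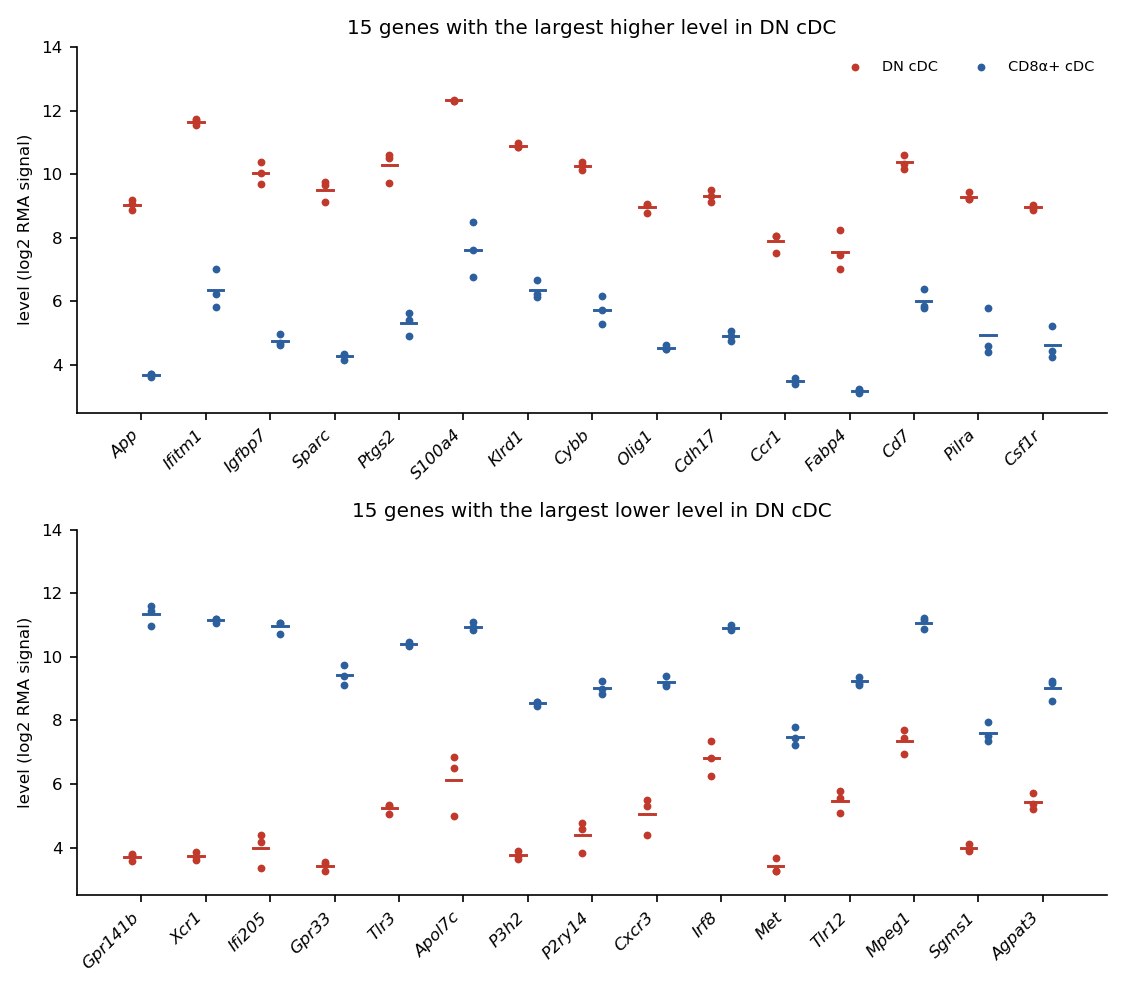
Levels (log2 signal) of the 15 genes with the largest higher and the 15 with the largest lower values in DN cDC, 1 point per array and a bar at each group's mean, with DN cDC in red at the left and CD8α+ cDC in blue. The rule took these 30 genes only from called genes whose arrays do not overlap between the groups.

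Genes known from cDC2 lay mostly on the other side. Of 20 measured, 12 were higher in DN cDC, 1 was lower and 7 were not called, with a median of 1.99. S100a4, a calcium-binding protein of motile cells, measured 12.31, 12.33 and 12.31 in DN cDC, against 6.77, 7.60 and 8.49 in CD8α+ cDC (4.70 ± 0.32, adjusted p = 1.53e-10). Csf1r, the receptor for the macrophage growth factor CSF-1, measured 9.02, 8.88 and 8.95 in DN cDC, against 4.24, 4.43 and 5.22 in CD8α+ cDC (4.32 ± 0.31, adjusted p = 5.45e-10). For both genes the DN arrays lay close together and the CD8α+ arrays spread over 1 log2 unit or nearly so. Cd7, an immunoglobulin-family surface protein, measured 10.18, 10.62 and 10.33 in DN cDC, against 5.84, 5.80 and 6.38 in CD8α+ cDC (4.37 ± 0.44, adjusted p = 9.65e-08).

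Also higher were Ltb, the lymphotoxin chain that helps to organise lymphoid tissue (3.84 ± 0.44), the inhibitory receptors Cd300lf (2.40 ± 0.39) and Cd300a (2.35 ± 0.20), the adhesion protein Epcam (1.98 ± 0.22) and the fractalkine receptor Cx3cr1 (1.84 ± 0.25). Genes that mark some cDC2 of other tissues were not called: Cd209a (0.76 ± 0.33), the lectin Clec10a (-0.59 ± 0.28), and Mgl2 (-0.87 ± 0.28) and Notch2 (-0.74 ± 0.16). Mgl2 and Notch2 passed the adjusted p (0.0197 and 0.0011) but not the 2-fold condition, on the lower side. Lyz2, a lysozyme, averaged 12.17 ± 0.07 in DN cDC and 10.17 ± 0.13 in CD8α+ cDC (SD, n = 3 each), and missed the call (2.00 ± 0.87, adjusted p = 0.0771), with an SE taken from all 7 groups. The lower member was Rbpj, the transcription factor downstream of Notch (-1.47 ± 0.11), whose call was lost when the transcript clusters of a gene were averaged.

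Among the other genes with the largest higher values, Ifitm1, an interferon-induced membrane protein, measured 11.69, 11.53 and 11.72 in DN cDC, against 6.22, 5.82 and 7.03 in CD8α+ cDC (5.29 ± 0.24, adjusted p = 3.15e-13). Ptgs2, the inducible cyclooxygenase of prostaglandin synthesis, measured 10.50, 9.73 and 10.59 in DN cDC, against 5.42, 4.91 and 5.64 in CD8α+ cDC (4.95 ± 0.44, adjusted p = 1.1e-08). All DN arrays lay at least 4 log2 units above the CD8α+ arrays for these genes. Klrd1, the CD94 chain of lectin-like receptors of NK cells, measured 10.86, 10.97 and 10.85 in DN cDC, against 6.66, 6.24 and 6.15 in CD8α+ cDC (4.54 ± 0.27, adjusted p = 1.54e-11). Cdh17, a cadherin of gut epithelium, measured 9.33, 9.52 and 9.14 in DN cDC, against 4.92, 5.08 and 4.76 in CD8α+ cDC (4.41 ± 0.33, adjusted p = 7.83e-10). Pilra, an inhibitory receptor of myeloid cells, was higher by 4.36 ± 0.37. For App and Olig1 (5.35 ± 0.13 and 4.42 ± 0.09), 1 side lay 4.90 and 4.36 from its R848 counterpart, so these values may belong to a neighbouring row.

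Of 21 measured regulators of dendritic cell and macrophage lineages, 6 were higher in DN cDC, 4 were lower and 11 were not called. Irf8 measured 6.82, 6.24 and 7.37 in DN cDC, against 10.91, 10.84 and 10.99 in CD8α+ cDC (-4.11 ± 0.22, adjusted p = 3.45e-12). Irf4, the related factor of cDC2, measured 8.11, 7.73 and 8.32 in DN cDC, against 4.48, 4.97 and 4.82 in CD8α+ cDC (3.30 ± 0.19, adjusted p = 1.25e-11). The factors thus ran in opposite directions, with no overlap of arrays. Zeb2, a repressor that cDC2 and plasmacytoid cells use, measured 7.18, 6.81 and 6.96 in DN cDC, against 4.23, 4.15 and 4.18 in CD8α+ cDC (2.80 ± 0.15, adjusted p = 2.11e-12). Bcl6, a repressor known from germinal centre B cells and cDC1, measured 8.05, 7.31 and 8.14 in DN cDC, against 9.94, 9.57 and 10.02 in CD8α+ cDC (-2.01 ± 0.23, adjusted p = 4.35e-07). Runx3 was also higher (1.96 ± 0.21), while Spi1, which encodes PU.1, was not called (0.35).

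The remaining called regulators carry limits. Spib, an Ets factor (4.13 ± 0.23), and Stat4, which signals for IL-12 (2.19 ± 0.19), had CD8α+ levels 6.56 and 5.01 away from those of R848-treated CD8α+ cDC. Tcf4, the factor of plasmacytoid cells, was higher by 1.08 ± 0.13 and lost its call without CD8α+ replicate 3 and with all array medians set equal. Irf7 was lower by 1.14 (-1.14 ± 0.17) and lost its call with no correction of the offset.

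Toll-like receptors and their partners gave 1 higher, 4 lower and 6 not called of 11 measured, with a median of -0.38. Tlr3, the sensor of double-stranded RNA, measured 5.30, 5.05 and 5.34 in DN cDC, against 10.39, 10.47 and 10.35 in CD8α+ cDC (-5.17 ± 0.22, adjusted p = 1.24e-13). Its CD8α+ level lay 3.92 above that after R848. Tlr12, which in mice senses profilin of protozoa, measured 5.09, 5.79 and 5.55 in DN cDC, against 9.18, 9.12 and 9.38 in CD8α+ cDC (-3.75 ± 0.20, adjusted p = 3.44e-12). Both sensors of the cDC1 branch were separated by more than 3 log2 units between any pair of arrays. Tlr13, a sensor of bacterial ribosomal RNA, lay just past the 2-fold limit (adjusted p = 5.24e-05) and lost its call in 6 settings, and Ly96, the TLR4 partner MD-2, lost its call without any 1 of the 6 arrays (-1.20 ± 0.45, adjusted p = 0.0404). The lower count was 2 without CD8α+ replicate 1, CD8α+ replicate 2 or DN replicate 3, and 2 with no correction of the offset. Tlr1, which pairs with TLR2 for lipopeptides, was higher, at 7.55, 7.98 and 7.96 in DN cDC, against 5.93, 5.87 and 5.89 in CD8α+ cDC (1.93 ± 0.15, adjusted p = 9.59e-10). Tlr2 (-0.11), Tlr4 (-0.01) and the adaptor Myd88 (0.01) were not called.

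Fc and complement genes gave 6 higher, 0 lower and 5 not called of 11 measured, with a median of 1.39. Fcer1g, the signalling chain shared by activating Fc receptors, measured 10.89, 10.94 and 10.92 in DN cDC, against 7.74, 8.22 and 8.63 in CD8α+ cDC (2.72 ± 0.20, adjusted p = 4.71e-10). The first component of complement was higher with all 3 chains, C1qa by 2.71 ± 0.50, C1qc by 2.34 ± 0.62 and C1qb by 2.30 ± 0.42. Cd93, which endothelium also expresses, was higher by 2.92 ± 0.25. Of 11 measured C-type lectins, 2 were higher and 1 lower: Clec5a (2.10 ± 0.22), Cd302 (1.32 ± 0.26) and Ly75. Of 15 receptors for dying cells and lipids, 1 was higher, Timd4, and 2 were lower, the integrin chain Itgav (-1.60 ± 0.10) and Scarb1 (-1.16 ± 0.17). That is 20% called, against 6.92% over all genes. The higher count was 2 without DN replicate 1, and the lower count was 1 with no correction of the offset.

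Of 12 measured MHC class II genes, 1 (8.33%) was higher and 11 were not called, a share near the 6.92% over all genes. The 11 held the invariant chain Cd74 (0.19 ± 0.21) and the master regulator Ciita (-0.06 ± 0.13). The exception was H2-Eb2, a little-studied β chain, at 8.35, 8.19 and 8.24 in DN cDC, against 5.68, 5.68 and 5.83 in CD8α+ cDC (2.53 ± 0.20, adjusted p = 2.01e-09). Of 17 genes of MHC class I loading and cross-presentation, 2 were lower and 1 was higher, with a median of -0.48. That is 17.6% called, against 6.92% over all genes. The lower genes were the peptide transporter chains, Tap1 (-1.34 ± 0.12) and Tap2 (-1.08 ± 0.13), of which Tap2 lost its call with no correction of the offset. B2m, the light chain of MHC class I, was not called (-0.04 ± 0.10). The higher gene was Cybb, the catalytic chain of the phagocyte NADPH oxidase, at 10.37, 10.14 and 10.27 in DN cDC, against 5.73, 5.29 and 6.17 in CD8α+ cDC (4.53 ± 0.35, adjusted p = 1.19e-09).

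Receptors for chemokines and other migration signals separated the groups in both directions. Of 20 measured, 7 were higher in DN cDC, 2 were lower and 11 were not called. Ccr6, the receptor for Ccl20 of the epithelium over the follicles, measured 8.37, 8.27 and 8.12 in DN cDC, against 4.17, 4.58 and 5.13 in CD8α+ cDC (3.63 ± 0.23, adjusted p = 5.88e-11). Ccr1, a receptor for inflammatory CC chemokines, measured 8.07, 7.51 and 8.07 in DN cDC, against 3.57, 3.49 and 3.41 in CD8α+ cDC (4.39 ± 0.21, adjusted p = 7.43e-13). The DN arrays of both receptors lay at least 2 log2 units above the highest CD8α+ array. Cxcr4, the receptor for Cxcl12 (2.60 ± 0.14), Gpr183, the oxysterol receptor EBI2 (2.28 ± 0.15), S1pr1, the exit receptor for sphingosine 1-phosphate (2.20 ± 0.27), Cx3cr1 and the gut-homing receptor Ccr9 (1.18 ± 0.13) were also higher. S1pr1 had a CD8α+ level 3.93 away from that of R848-treated CD8α+ cDC. The lower receptors were Xcr1 and Cxcr3, with Cxcr3 at 5.49, 5.32 and 4.39 in DN cDC, against 9.41, 9.14 and 9.08 in CD8α+ cDC (-4.14 ± 0.21). Its CD8α+ level lay 4.33 above that after R848. Ccr7, which guides mature cells to T cell zones, averaged 8.61 ± 0.89 in DN cDC and 9.18 ± 0.55 in CD8α+ cDC (SD, n = 3 each), with overlapping arrays (-0.57 ± 0.35).

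Chemokine ligands gave 4 higher and 0 lower of 16 measured: Xcl1, Cxcl2 (2.38 ± 0.77, adjusted p = 0.0183), Ccl3 (1.91 ± 0.53, adjusted p = 0.0072) and Pf4 (1.50 ± 0.29). Without DN replicate 3 the count was 2, with Cxcl2 and Ccl3 lost, and each also lost its call without 1 CD8α+ array (replicate 3 for Cxcl2, replicate 2 for Ccl3). Cytokines gave 4 higher, 3 lower and 11 not called of 18. The higher ones were Ltb, the IL-1 receptor antagonist Il1rn, Il1b (1.43 ± 0.27) and Il6 (1.27 ± 0.34). Il1rn measured 8.42, 8.06 and 8.36 in DN cDC, against 5.74, 5.76 and 6.01 in CD8α+ cDC, with no overlap (2.45 ± 0.17, adjusted p = 2.83e-10). The lower ones were Tnfsf13b, the B cell survival factor BAFF (-1.33 ± 0.27), Ebi3, a chain of IL-27 and IL-35 (-1.17 ± 0.24), and Tnf (-1.03 ± 0.26), which lost its call in 5 settings, among them no correction of the offset. Of 20 cytokine receptor genes, 1 was higher, Csf1r, and 1 lower, Ifnar2 (-1.04 ± 0.18), or 10% against 6.92% over all genes. Ifnar2 is a chain of the type I interferon receptor and lost its call with no correction of the offset and without replicate 2 of either group. The count of higher receptors was 3 without CD8α+ replicate 3 or DN replicate 2, 2 without CD8α+ replicate 2 or DN replicate 1, and 4, with 0 lower, with no correction of the offset.

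Of 17 measured genes of maturation and costimulation, 2 were higher, 2 were lower and 13 were not called. Cd86, the ligand of CD28, measured 8.30, 7.96 and 8.43 in DN cDC, against 10.71, 10.73 and 10.66 in CD8α+ cDC, with every DN array below (-2.47 ± 0.19, adjusted p = 1.19e-09). Its relative Cd80 was not called (0.85 ± 0.18). Cd274, the inhibitory ligand PD-L1, measured 9.39, 9.25 and 9.28 in DN cDC, against 7.48, 7.80 and 7.94 in CD8α+ cDC, with every DN array above (1.57 ± 0.14, adjusted p = 2.22e-08). Cd200 (-2.75 ± 0.26) and Socs2 (1.41 ± 0.32) had a side of the row match 5.29 and 5.44 away from its R848 counterpart. Socs2 lost its call without CD8α+ replicate 1.

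**Figure D3:**
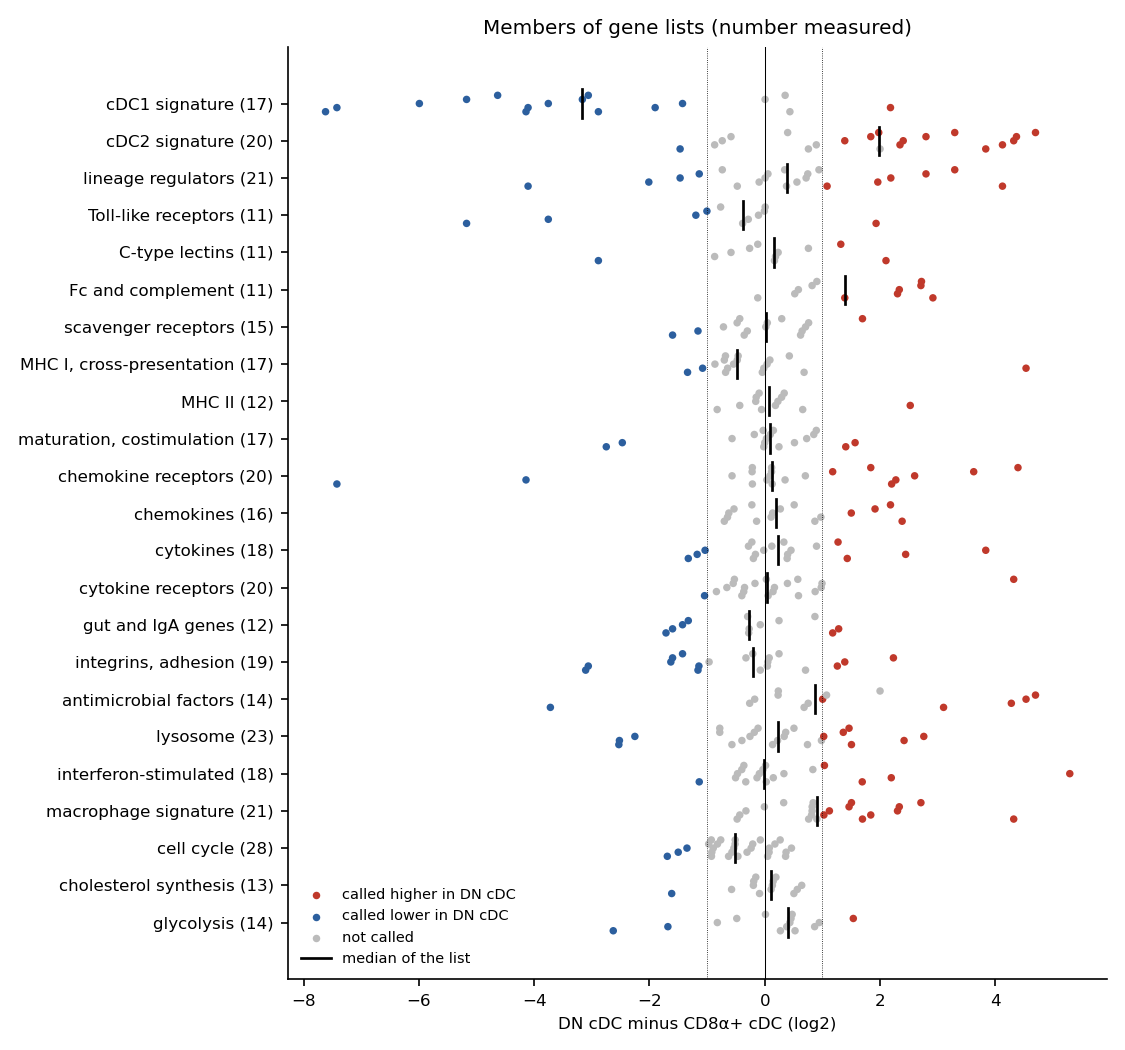
Difference DN minus CD8α+ cDC (log2) of each measured member of 23 gene lists, with the number measured in brackets, calls in red (higher in DN cDC) and blue (lower), other members in grey, the median as a black bar and dotted lines at 2-fold. The cDC1 median lies at -3.16 and the cDC2 median at 1.99, while the medians of MHC class II, scavenger receptor and cytokine receptor genes lie within 0.10 of 0.

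Genes tied to the gut environment and to IgA gave 2 higher and 4 lower of 12 measured. Aldh1a2, the enzyme that makes retinoic acid in migratory gut dendritic cells, measured 6.07, 6.52 and 6.42 in DN cDC, against 7.89, 8.17 and 8.10 in CD8α+ cDC (-1.71 ± 0.20, adjusted p = 1.06e-06). Aldh1a1, a related enzyme, measured 4.75, 5.13 and 5.39 in DN cDC, against 3.83, 3.86 and 3.74 in CD8α+ cDC (1.28 ± 0.12, adjusted p = 3.79e-08). The enzymes ran in opposite directions, with no overlap in either. Itgav, Itgae and Tnfsf13b were the other lower members, and Ccr9 the other higher one.

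Of 19 integrin and adhesion genes, 3 were higher in DN cDC, 7 were lower and 9 were not called, with a median of -0.21. Itga8, an integrin chain, measured 3.49, 3.52 and 3.92 in DN cDC, against 7.20, 6.79 and 6.26 in CD8α+ cDC (-3.11 ± 0.16, adjusted p = 1.33e-12). Its CD8α+ level lay 3.22 above that after R848. Itgb1, the β1 chain that pairs with both Itga8 and Itgav, measured 7.92, 7.47 and 7.82 in DN cDC, against 9.30, 9.35 and 9.44 in CD8α+ cDC (-1.63 ± 0.14, adjusted p = 1.02e-08). Every DN array of both chains was below every CD8α+ array. Itgal, the LFA-1 chain (-1.16 ± 0.18), and the hyaluronan receptor Cd44 (-1.14 ± 0.09) were lower too, and both lost their call with no correction of the offset. The higher members were the junction proteins F11r (2.23 ± 0.26) and Jam2 (1.26 ± 0.15), and Itgam.

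Antimicrobial factors gave 5 higher, 1 lower and 8 not called of 14. S100a6, a neighbour of S100a4 in sequence and function, measured 12.57, 12.55 and 12.56 in DN cDC, against 8.31, 8.11 and 8.43 in CD8α+ cDC (4.28 ± 0.19, adjusted p = 2.68e-13). Pglyrp1, which binds bacterial peptidoglycan, was higher by 3.10 ± 0.23, and Slpi, a protease inhibitor of mucosa, by 1.00 ± 0.13, a call lost in 5 settings. S100a4 and Cybb were the remaining higher members, and Mpeg1 the lower one.

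Lysosomal genes were split, with 6 higher, 3 lower and 14 not called of 23. Ctsd, an aspartic protease, measured 8.43, 8.83 and 8.54 in DN cDC, against 5.46, 5.92 and 6.14 in CD8α+ cDC (2.76 ± 0.35, adjusted p = 2.01e-06). Lgmn (2.42 ± 0.22), whose CD8α+ level lay 4.85 from its R848 counterpart, Tpp1 (1.50 ± 0.16), Ctsl (1.46 ± 0.22), Npc1 (1.36 ± 0.21) and Ctsc (1.02 ± 0.12, lost in 4 settings) were also higher. Npc2, which hands cholesterol to Npc1, ran the other way, at 8.62, 8.62 and 8.70 in DN cDC, against 11.13, 11.14 and 11.23 in CD8α+ cDC (-2.52 ± 0.22, adjusted p = 6.93e-09). Gusb, a glycosidase, measured 6.74, 6.83 and 6.61 in DN cDC, against 9.26, 9.20 and 9.32 in CD8α+ cDC (-2.53 ± 0.13, adjusted p = 1.33e-12). The third lower member was Psap, the precursor of the saposins (-2.25 ± 0.15).

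Interferon-stimulated genes gave 4 higher, 1 lower and 13 not called of 18, or 27.8% called against 6.92% over all genes. The higher members were Ifitm1, the RNA sensor Ddx58 (2.20 ± 0.17), Ifitm6 (1.69 ± 0.41) and Isg20 (1.04 ± 0.28, lost in 5 settings), and the lower one was Irf7. Genes known from macrophages gave 10 higher and 0 lower of 21, with a median of 0.91. They included Csf1r, the C1q chains, Cx3cr1, Timd4 and Adgre1, an adhesion G protein-coupled receptor of macrophages (1.12 ± 0.21). Mertk, an uptake receptor that defines tissue macrophages, averaged 3.50 ± 0.27 in DN cDC and 3.94 ± 0.09 in CD8α+ cDC (SD, n = 3 each), near the floor of the arrays. Cd68 averaged 10.31 ± 0.12 in DN cDC and 10.79 ± 0.07 in CD8α+ cDC and was not called (-0.48 ± 0.16).

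Of 28 measured cell cycle genes, 3 were lower in DN cDC and 0 were higher, with a median of -0.51. The share called was 10.7%, against 6.92% over all genes. The lower members were the mitotic motor Kif11 (-1.69 ± 0.31), Ube2c (-1.50 ± 0.34) and the kinase Cdk1 (-1.35 ± 0.29). The count of lower members was 6 without CD8α+ replicate 3 or DN replicate 1, and 7 with all array medians set equal. In glycolysis, Pfkp, a phosphofructokinase, measured 5.63, 5.72 and 6.17 in DN cDC, against 8.60, 8.25 and 8.54 in CD8α+ cDC, with all DN arrays below (-2.63 ± 0.18, adjusted p = 1.37e-10). Hk3, a hexokinase, was lower by 1.68 (-1.68 ± 0.19), and Slc16a3, a lactate carrier, was higher (1.54 ± 0.18). The other 11 of 14 glycolysis genes were not called, which makes 21.4% called, against 6.92% over all genes. Nsdhl (-1.61 ± 0.19) was the 1 of 13 cholesterol synthesis genes called (7.69%), and Junb (1.35 ± 0.20) the 1 of 15 immediate early genes called (6.67%), both shares near the 6.92% over all genes.

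Markers of other cells were higher in DN cDC for several lists. Of 24 stromal and endothelial genes, 12 were higher and 0 lower (50% called, against 6.92% over all genes), with a median of 1.36. This list, like the others, was chosen with earlier results of these data known, so its count and median only describe it. Igfbp7, a secreted protein of vessels, measured 10.37, 9.70 and 10.02 in DN cDC, against 4.68, 4.99 and 4.63 in CD8α+ cDC (5.27 ± 0.51, adjusted p = 4.88e-08). Sparc, a matrix glycoprotein, measured 9.65, 9.14 and 9.75 in DN cDC, against 4.17, 4.35 and 4.31 in CD8α+ cDC (5.23 ± 0.52, adjusted p = 7.07e-08). Emcn, the endothelial sialomucin endomucin, measured 7.79, 7.07 and 7.93 in DN cDC, against 3.45, 3.43 and 3.43 in CD8α+ cDC (4.16 ± 0.26, adjusted p = 4.55e-11). These genes were high in every DN array. Every CD8α+ array of Sparc and Emcn lay below 4.65, the 95th percentile of genes these cells should not use. Igfbp7 averaged 4.765 in CD8α+ cDC, a little above it. Fabp4 (4.38 ± 0.46), Bgn (3.34 ± 0.10), Plvap (3.16 ± 0.35), Cdh5 (2.52 ± 0.28) and Pecam1 (2.35 ± 0.20) were higher as well, whereas the collagen gene Col1a1 averaged 5.63 in DN cDC and 5.68 in CD8α+ cDC. The mean level of the list was 5.86 to 6.30 over the DN arrays, against 4.32 to 4.40 over the CD8α+ arrays.

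Of 19 epithelial genes, 9 were higher and 0 lower, with a median of 1.55. The higher count was 6 without DN replicate 3. Tff3, of goblet cells, measured 6.94, 8.54 and 9.38 in DN cDC, against 4.88, 4.65 and 4.68 in CD8α+ cDC (3.55 ± 0.84, adjusted p = 0.0021). Fabp2, of absorptive cells, varied within both groups, at 10.69, 9.10 and 11.05 in DN cDC, against 5.18, 8.19 and 5.96 in CD8α+ cDC (3.83 ± 1.47, adjusted p = 0.0459). The arrays did not overlap for either gene, but the Fabp2 call was lost without any 1 of DN replicates 1 and 3 or CD8α+ replicates 1 and 3. The mean level of the list was 5.89 to 6.73 in DN cDC, against 4.44 to 5.14 in CD8α+ cDC. Epcam and Cdh1 (2.69 ± 0.28) stand on this list and are also known from dendritic cells.

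Lymphoid markers were higher in part. Of 6 measured T cell genes 3 were higher, Thy1 (3.34 ± 0.36), Cd3g (3.04 ± 0.62) and Cd3e (1.50 ± 0.20), and the mean level was 5.94 to 6.14 in DN cDC, against 4.47 to 4.64 in CD8α+ cDC. Of 10 NK and innate lymphoid genes, 3 were higher, Klrd1, Nkg7 (2.87 ± 0.44) and Gzma (2.60 ± 0.73, lost without DN replicate 2), and 1 was lower, Klrk1 (-1.85 ± 0.22), with a mean level of 6.48 to 6.96 in DN cDC, against 5.50 to 5.77 in CD8α+ cDC. Of 9 plasma cell genes 3 were higher, Irf4, Mzb1 (1.34 ± 0.50, lost in several settings) and Jchain. Jchain, the joining chain of secreted antibody, measured 10.46, 9.37 and 10.19 in DN cDC, against 5.16, 7.40 and 5.22 in CD8α+ cDC (4.08 ± 0.72, adjusted p = 0.000123). The highest CD8α+ value of Jchain came from replicate 2, which was also the highest for Fabp2. The mean level of plasma cell genes was 6.15 to 6.51 in DN cDC, against 4.97 to 5.57 in CD8α+ cDC.

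Of 8 B cell genes 2 were higher, Cd79a (2.85 ± 0.38) and Cd72 (2.36 ± 0.36), while Ms4a1, which encodes CD20, averaged 5.65 in DN cDC and 5.92 in CD8α+ cDC, and Pax5 averaged 4.64 in DN cDC and 4.46 in CD8α+ cDC. Their mean level was 5.33 to 6.09 in DN cDC, against 4.71 to 5.24 in CD8α+ cDC. Of 11 plasmacytoid cell genes 5 were higher, among them Lair1 (3.14 ± 0.21) and Atp1b1 (2.46 ± 0.34), whereas Siglech, which defines these cells, averaged 4.95 ± 0.21 in DN cDC and 4.78 ± 0.17 in CD8α+ cDC (SD, n = 3 each), with overlapping arrays. The mean level of the plasmacytoid list was 6.41 to 6.53 in DN cDC, against 5.12 to 5.25 in CD8α+ cDC. Of 11 neutrophil genes 1 (9.09%, against 6.92% over all genes) was higher, Retnlg (1.08 ± 0.11). It was not called without DN replicate 3 or with all array medians set equal. The neutrophil list averaged 4.12 to 4.32 in DN cDC, against 3.75 to 3.86 in CD8α+ cDC, with Ly6g and Mpo near the floor in both. No mast cell or basophil gene of 9 was called, with the largest difference for Gata2 (0.38 ± 0.09), and of 7 red cell and platelet genes 2 were higher, led by Ppbp (2.85 ± 0.36). The part of other cells in the differences was not tested.

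**Figure D4:**
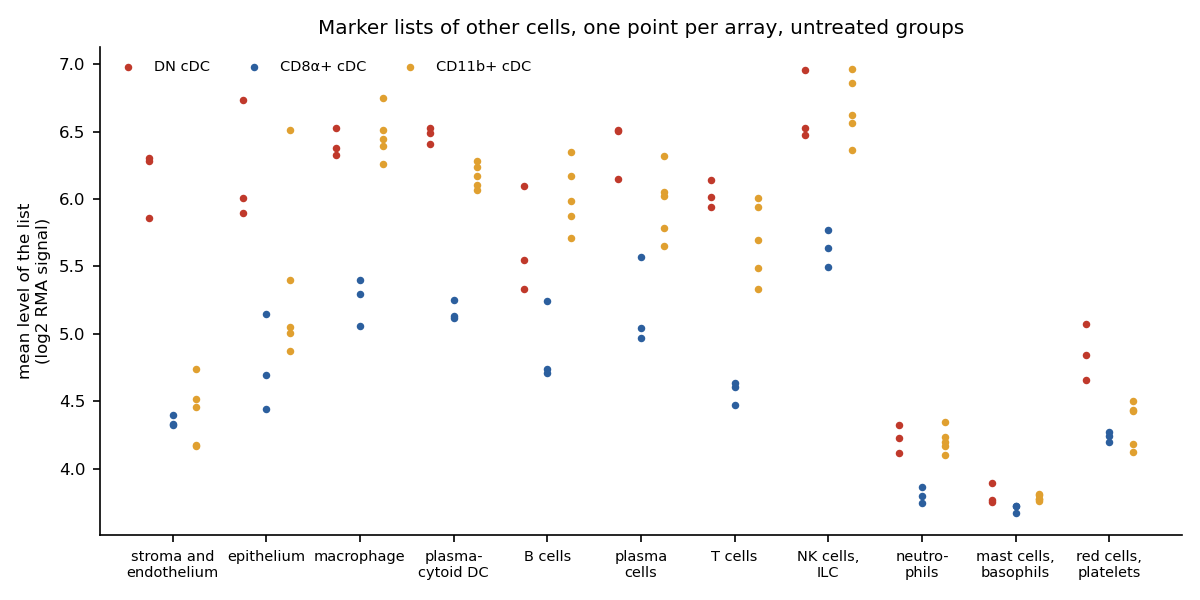
Mean level (log2 signal) of 11 marker lists, 1 point per array, for DN cDC in red, CD8α+ cDC in blue and untreated CD11b+ cDC in yellow. Stromal and endothelial genes reach 5.86 to 6.30 in DN cDC, above CD8α+ cDC (4.32 to 4.40) and CD11b+ cDC (4.17 to 4.74), while macrophage genes lie at 6.33 to 6.53 in DN cDC, against 5.06 to 5.40 in CD8α+ cDC and 6.26 to 6.75 in CD11b+ cDC.

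The same genes were read in untreated CD11b+ cDC, the other SIRPα+ cDC, which share an array set with DN cDC. The comparisons share the DN arrays, so values are given side by side. DN and CD11b+ cDC also share a row match. An effect of the array set would thus appear only against CD8α+ cDC, and a wrong row would be wrong in both. How far this bears on the counts was not tested. DN minus CD11b+ cDC gave 172 called genes (1.06%), 118 higher (0.726%) and 54 lower (0.332%). Of the 658 genes higher in DN than in CD8α+ cDC, 542 (82.4%) were not called against CD11b+ cDC, 102 were higher there too and 14 were lower. Of the 467 lower genes, 448 (95.9%) were not called, 16 were lower there too and 3 were higher. Xcr1 differed by -0.16 ± 0.12 from CD11b+ cDC, Irf4 by 0.35 ± 0.17 and Ccr6 by 0.55 ± 0.21, none of them called. Ifi205 was also lower than in CD11b+ cDC (-1.67 ± 0.27), Ly75 likewise (-1.07 ± 0.15), whereas Cadm1 (1.19) and Plpp1 (1.09) were higher than in CD11b+ cDC.

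Of the 24 stromal and endothelial genes, 12 were higher in DN than in CD11b+ cDC and 0 lower, with a median of 1.29. Igfbp7 was higher than in CD11b+ cDC by 4.94 ± 0.46, Sparc by 4.95 ± 0.46, Emcn by 3.88 and Fabp4 by 3.65 ± 0.42. Cdh17 was higher by 2.07 ± 0.29 and Aldh1a1 by 1.21. Cd209a and Mgl2, neither of them called against CD8α+ cDC, were lower in DN than in CD11b+ cDC by 1.96 (-1.96) and 2.12 (-2.12). Ccr7 was lower by 1.63 (-1.63), and Il1rn by 1.23 (-1.23).

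CD11b+ minus CD8α+ cDC 9 h after R848 shares no array with the DN comparison, although its levels guided the row match. It called 537 genes (3.30%), 335 higher (2.06%) and 202 lower (1.24%) in CD11b+ cDC. Of the 658 genes higher in DN cDC, 168 (25.5%) were also higher there and 2 were lower. Of the 467 lower genes, 78 (16.7%) were also lower there and 7 were higher. Xcr1 (-4.75 ± 0.12), Gpr141b (-4.56 ± 0.17) and Gpr33 (-3.96 ± 0.17) were lower in R848-treated CD11b+ cDC, and Ifitm1 (3.35 ± 0.22), Klrd1 (3.44 ± 0.24) and Cybb (2.58 ± 0.31) were higher. Irf8 was lower there (-1.07 ± 0.20) and Irf4 higher (1.50 ± 0.17). With no row match needed inside the R848 arrays, Sirpa was higher in CD11b+ cDC (3.36 ± 0.34, adjusted p = 5.08e-04) and Cd8a was lower (-3.52 ± 0.17, adjusted p = 1.12e-05).

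**Figure D5:**
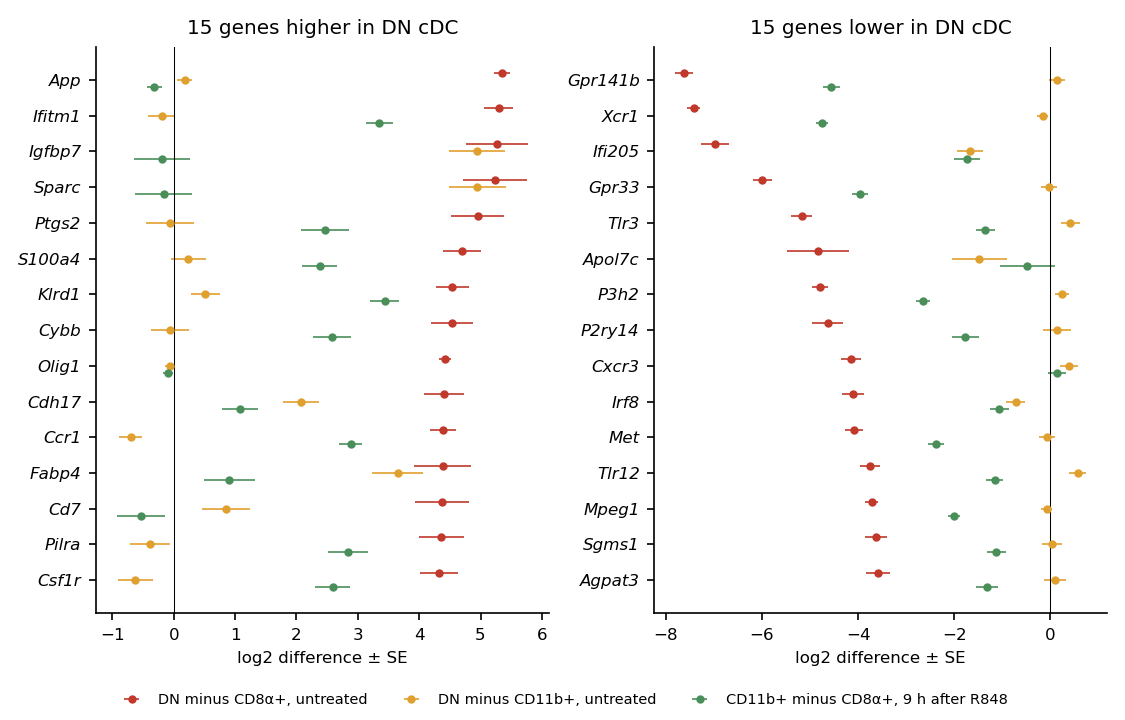
Differences (log2, with SE) of the 15 genes with the largest higher values (left) and the 15 with the largest lower values (right) in DN cDC, for DN minus CD8α+ cDC in red, DN minus CD11b+ cDC in yellow and CD11b+ minus CD8α+ cDC after R848 in green. Against CD11b+ cDC most points lie near 0, with Igfbp7 (4.94), Sparc (4.95), Fabp4 (3.65) and Cdh17 (2.07) on the higher side.

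Since Irf8 and Irf4 ran in opposite directions, the promoters were searched for the composite elements that these factors bind with a partner. RefSeq promoters (mouse build GRCm38.p6, 250 bases before to 50 after the first listed start) were found for 12807 of the 16264 genes, and both strands were searched. The Ets-IRF element, GGAA and GAAA with any 2 bases between them, was found in 19 of 506 promoters (3.75%) of genes higher in DN cDC, in 12 of 379 (3.17%) of genes lower, and in 325 of all 12807 (2.54%). The interferon response element, GAAA and GAAA with any 2 bases between them, was found in 3.75% of promoters of higher genes, 3.43% of lower genes and 3.19% of all. The AP-1 element TGANTCA was found in 5.73%, 6.07% and 6.86% in the same order. The AP-1-IRF elements, TTTC and TGANTCA with any 4 bases between them, or GAAA directly before TGANTCA, were found in 0 promoters of either group of called genes, and in 7 (0.0547%) and 17 (0.133%) of all. The Ets-IRF and interferon elements differ only in their second letter. These shares are descriptions and were not tested.

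Promoters were found for 23 of the 30 genes with the largest values, and 3 of these 23 had an Ets-IRF element in the 300-base window: Gpr33, lower in DN cDC, and Cybb and Pilra, higher in DN cDC. Their 250 bases before the start are shown to let the elements be read in place, 5′ to 3′ on the strand of the gene, with the matches in capitals. They lie at chr12:52028064-52028313 for Gpr33, at chrX:9469325-9469574 for Cybb and at chr5:137836279-137836528 for Pilra, all on the minus strand.
Gpr33: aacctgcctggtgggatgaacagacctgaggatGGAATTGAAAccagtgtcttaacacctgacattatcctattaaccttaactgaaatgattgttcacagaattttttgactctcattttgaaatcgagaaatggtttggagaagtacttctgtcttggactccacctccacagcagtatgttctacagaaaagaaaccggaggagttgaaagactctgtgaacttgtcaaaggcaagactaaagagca
Cybb: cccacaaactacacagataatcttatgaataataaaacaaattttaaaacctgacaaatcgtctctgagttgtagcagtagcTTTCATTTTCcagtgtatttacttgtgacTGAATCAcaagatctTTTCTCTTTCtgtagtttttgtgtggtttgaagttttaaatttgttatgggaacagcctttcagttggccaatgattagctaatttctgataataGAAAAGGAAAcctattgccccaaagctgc
Pilra: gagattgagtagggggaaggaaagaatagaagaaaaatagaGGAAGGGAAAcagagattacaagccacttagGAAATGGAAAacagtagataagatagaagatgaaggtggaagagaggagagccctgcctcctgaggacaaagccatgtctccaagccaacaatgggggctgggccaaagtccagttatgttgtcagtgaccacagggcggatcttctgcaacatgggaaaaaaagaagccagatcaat
In Gpr33 the capitals mark the Ets-IRF match GGAATTGAAA, which begins 217 bases before the start. In Cybb they mark interferon elements at 168, 124 and 29 bases, the first pair as TTTCATTTTC and TTTCTCTTTC on the opposite strand, and an AP-1 element TGAATCA at 139 bases, while its Ets-IRF match lies after the start and is not shown. In Pilra they mark the Ets-IRF match GGAAGGGAAA at 209 bases and the interferon element GAAATGGAAA at 178 bases. A match describes letters in the window and was not tested for binding.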

How the data were processed

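Per the submitters' processing notes, the authors made the deposited log2 values with RMA in Affymetrix Expression Console 1.4.1. The annotation's genome build was not given in the sources used, nor was whether all arrays were normalized together. The table held 35556 rows, and correlations across rows as deposited were 0.938 or more within an array set and 0.225 or less across sets. Rows were matched to the R848 arrays by a pair hidden Markov model that keeps row order, over the 28939 rows that start with the first annotated one. A row was accepted where 4 settings gave the same partner at a posterior of 0.9 or more, which held for 85.1% of rows in the DN set and 85.9% in the CD8α+ set. With rows rolled out of place, 11 and 0 rows were accepted. Matching favours rows with small differences from the R848 arrays, so a gene with a large R848 response can be lost. Of 982 genes that these cells should not use, 8 (0.815%) were called.

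A gene took its transcript cluster with the highest mean among rows with 1 symbol. Cyclic loess (3 iterations) over all 25 arrays removed offsets, and limma 3.58.1 (R 4.3.3) was fitted on the 7 groups, unpaired. The labels did not say whether same-numbered DN and CD8α+ samples shared a pool of mice. Deviations of same-numbered arrays correlated at -0.04, -0.06 and -0.10, which with 3 arrays per group cannot decide it. Genes were called at a Benjamini-Hochberg adjusted p under 0.05 and 2-fold. Genes were named by rule: the sort panel, the 15 largest per direction, and up to 4 called members per list with the 2 largest against the majority. The 15 largest were taken among called genes with an official symbol whose arrays did not overlap between the groups. They also had to keep their call under other scalings. Other list members were chosen after their values were seen. The groups, lists and rule were chosen with earlier results of these data known. The steps were tested on simulated data. The number of arrays limits the precision.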

Additional observations from a re-analysis of the deposited data

How the results depend on the processing

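Of the 122 genes named by rule, 119 were measured and 114 were called. Across the settings tried, no call among the measured ones changed direction: 2328 results kept their side of the threshold, 39 lost their call and 8 gained one. Medians of 12 of 36 lists changed sign between offset settings: C-type lectins, chemokine receptors, cholesterol synthesis, cytokine receptors, cytokines, genes shared by cDC, immediate early genes, scavenger receptors, interferon-stimulated genes, mast cell genes, maturation genes and MHC class II, for which no direction is read. With no offset correction, 1069 genes were higher in DN than in CD8α+ cDC. With an adjusted p alone, 2986 were higher and 2919 lower against CD8α+ cDC, 416 higher and 244 lower against CD11b+ cDC, and 1101 higher and 1006 lower in CD11b+ against CD8α+ cDC after R848. A filter on dim genes left 46 higher than in CD11b+ cDC. Leaving out each array in turn gave 623 to 698 higher and 459 to 500 lower against CD8α+ cDC, 102 to 132 higher and 35 to 67 lower against CD11b+ cDC (35 without DN replicate 2), and 334 to 335 higher and 202 lower after R848. Chosen after seeing the data, a posterior of 0.99 left 485 higher and 340 lower of 12949 genes, and keeping genes within 2 of their R848 levels left 552 higher and 384 lower of 15848, with 35 lower against CD11b+ cDC and 126 lower after R848; the cause of these shifts was not tested. With the variance taken from the 6 DN and CD8α+ arrays alone, 663 genes were higher and 469 lower. With the replicate number as a block, 661 genes were higher and 468 lower. Of 141 called list genes, 25 lost their call in at least 1 setting: Ccl3, Cd44, Ctsc, Cxcl2, Fabp1, Fabp2, Gzma, Ifnar2, Ikzf1, Irf7, Isg20, Itgal, Ly96, Mzb1, Pla2g4a, Rbpj, Retnlg, Scarb1, Slpi, Socs2, Tap2, Tcf4, Tlr13, Tnf and Vil1.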
